A study of Mus musculus with 15 samples.

Results

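Autophagy delivers cytoplasm and organelles to the lysosome inside a double membrane vesicle, the autophagosome. A kinase complex built on Ulk1 or Ulk2 starts the process, a class III PI3K complex with Becn1 marks the membrane with lipid, and 2 conjugation reactions then couple small proteins of the Atg12 and Atg8 families to their targets. Signalling through PI3K, Akt and mTOR is known to restrain this pathway in nutrient-rich cells, and chondrocytes of the growth plate, which live without blood vessels, are known to use it. The transcripts described here are those of 10 core genes of the pathway: the kinases Ulk1 and Ulk2, the lipid kinase cofactor Becn1, the conjugation genes Atg7, Atg12 and Atg5, the Atg8 family members Map1lc3a, Map1lc3b and Gabarapl1, and the cargo receptor Sqstm1, also called p62. Every probe set that the platform annotation maps to 1 of these symbols was taken, which gave 31 of the 45101 probe sets. A probe set is a group of short probes on the array that together measure 1 transcript, and 24 of the 31, with at least 1 for each of the 10 genes, reached a mean signal of 50 in some group and were tested.

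Primary chondrocytes were prepared from cartilage of CD1 mouse embryos at embryonic day 15.5, grown as a monolayer and treated for 24 h. The 5 groups, of 3 arrays each, received the vehicle DMSO, 10 µM LY294002, an inhibitor of PI3K, 10 µM UO126, an inhibitor of MEK, 10 µM SB202190, grouped with UO126 by the submitters and usually described as an inhibitor of p38 kinases, or trichostatin A (TSA), an inhibitor of histone deacetylases. The unit of the TSA dose cannot be read from the labels, so no dose is given for it. All groups shared the same medium with ascorbic acid and β-glycerophosphate, and the study asked which genes depend on PI3K in chondrocytes. RNA was hybridized to Affymetrix mouse arrays, and each value is a MAS5 signal, a linear intensity that was scaled to the same trimmed mean on every array. Signals measure transcripts and not autophagic activity, and signals of different probe sets were not set against each other, since each has its own probes. The marker sums below are an exception: they add signals of different probe sets, so the brightest weigh most in them.

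All 8 chondrocyte markers listed, among them Col2a1 and Acan, reached a mean signal of 50 in every group. Their summed signal ranged from 13607 to 15549 on the TSA arrays and from 19641 to 35708 on the others. The TSA arrays stood apart, with correlations of 0.836 to 0.866 to arrays of other groups against 0.953 to 0.975 among the other groups and 0.967 to 0.981 within a group. The summed signal of 5 skeletal muscle markers was 182 to 222 with TSA and 495 to 1023 with DMSO, and that of 4 hypertrophic markers was 1235 to 3794 against 4845 to 6270. Within these sums, hypertrophic Col10a1 (mean 602 with TSA, 548 with DMSO) and chondrocyte Col2a1 (5634 and 5700) stayed near their DMSO means. The other hypertrophic and chondrocyte markers had lower means with TSA. Chondrocyte Matn1 averaged 2824 ± 429 (SD) with LY294002 and 2832 ± 356 with UO126, against 1869 ± 197 with DMSO. Comp averaged 3482 ± 640 and 3405 ± 938, against 2373 ± 622. With LY294002 the chondrocyte markers had means above those with DMSO, except Col2a1 (5509). The 2 osteoblast markers measured summed to 400 to 588 with DMSO, 161 to 220 with TSA, 271 to 382 with SB202190 and 653 to 868 with UO126. Of 2 adipocyte markers measured, Fabp4 was lower with LY294002 (325 ± 146 against 606 ± 21.8, limma adjusted p = 0.0284), while Adipoq stayed under a mean of 50 in every group. Of 4 fibroblast markers, Dpt was lower with LY294002 (43.5 against 89.4, limma adjusted p = 0.0384), and with TSA Thy1 rose from 344 to 818 while Col3a1 and Dpt fell. Of 5 macrophage markers, Cd68 rose from 68.0 to 292 with TSA, while Csf1r, Adgre1 and Lyz2 fell. Of 4 endothelial markers only Kdr reached a mean of 50, and it did not differ from DMSO past the threshold in any group, while the 2 erythroid markers measured stayed under 50 in all groups. The part of these shifts in the results below was not tested, and in such bulk cultures fewer cells of a type and less RNA per cell cannot be told apart.

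The sequence just upstream of 4 of the genes that rose with TSA is shown here because these members moved together in that comparison, and that of Atg5 because it did not pass there. The windows come from RefSeq (build GRCm38.p6), which held promoters for 7 of the 10 members, and end where the annotated gene begins. For Ulk2 and Atg7 too little of the window lay outside the gene to be shown. Capitals mark the GC box, GGGCGG on either strand (CCGCCC when read on the strand shown), the letters bound by factors of the Sp family.
Ulk1 (chr5:110810121-110810331, minus strand): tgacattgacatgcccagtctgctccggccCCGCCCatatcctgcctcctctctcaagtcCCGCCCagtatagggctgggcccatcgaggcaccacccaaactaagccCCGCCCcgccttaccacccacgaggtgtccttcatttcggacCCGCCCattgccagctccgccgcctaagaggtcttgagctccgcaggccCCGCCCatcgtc
Map1lc3b (chr8:121590188-121590437, plus strand): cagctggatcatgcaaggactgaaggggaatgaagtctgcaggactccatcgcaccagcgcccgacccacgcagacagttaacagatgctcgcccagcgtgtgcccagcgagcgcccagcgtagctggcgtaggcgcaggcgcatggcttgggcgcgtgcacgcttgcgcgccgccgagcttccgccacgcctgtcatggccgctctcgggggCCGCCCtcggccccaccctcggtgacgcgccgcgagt
Gabarapl1 (chr6:129532942-129533191, plus strand): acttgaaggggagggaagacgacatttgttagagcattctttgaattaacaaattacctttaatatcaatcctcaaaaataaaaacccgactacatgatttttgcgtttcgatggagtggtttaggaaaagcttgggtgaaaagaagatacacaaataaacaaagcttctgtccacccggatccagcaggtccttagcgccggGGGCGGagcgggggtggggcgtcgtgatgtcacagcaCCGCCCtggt
Sqstm1 (chr11:50210821-50211070, minus strand): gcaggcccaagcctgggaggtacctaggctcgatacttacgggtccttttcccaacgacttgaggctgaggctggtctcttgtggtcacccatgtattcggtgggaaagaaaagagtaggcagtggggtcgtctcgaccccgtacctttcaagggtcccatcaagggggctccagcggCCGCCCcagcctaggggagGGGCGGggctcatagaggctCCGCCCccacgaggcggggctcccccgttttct
Atg5 (chr10:44268089-44268321, plus strand): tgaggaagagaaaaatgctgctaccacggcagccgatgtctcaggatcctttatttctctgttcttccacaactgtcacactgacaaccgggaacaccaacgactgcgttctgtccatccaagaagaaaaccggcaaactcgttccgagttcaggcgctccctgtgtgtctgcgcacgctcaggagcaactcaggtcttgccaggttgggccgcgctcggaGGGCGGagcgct

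The Ulk1 window of 211 bases held 5 GC boxes, a number that 0.965% of the corresponding windows of 32841 promoters reached. That window was 64.9% G and C, more than 83.8% of the corresponding windows, and none of the shares given here was matched for base composition. The Sqstm1 window held 3, a number reached by 8.47% of promoters, the Gabarapl1 window 2, reached by 16.7%, and the Map1lc3b window 1, reached by 32.8%. Atg5, which did not rise, also had 1 in its 233 bases, a number reached by 30.3%. The base composition of the 5 windows differed widely, from 46.8% G and C upstream of Gabarapl1 to 69.6% upstream of Map1lc3b, beside a median of 52.4% over all promoters. None of the 5 held the E-box core CACGTG, found in 6.02% of promoters, or the FoxO motif GTAAACA, found in 3.17%. Neither TCACGTGA, which contains the E-box core (0.786% of promoters), nor TGACTCA (4.46%), TGACNNNGC (10.2%), TGACGTCA (1.55%) or CCAAT (33.9%) matched. TGACG, which is contained in TGACGTCA, matched once, upstream of Map1lc3b, as in 17.8% of promoters. All 9 motifs were searched on both strands. These are matches of letters within the windows shown and not measured binding sites.

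With LY294002, probe sets of both initiation kinases, of Atg12, of Map1lc3a and of Map1lc3b were higher than with DMSO, by 1.29 to 1.76-fold. No Gabarapl1 probe set passed in the reported fit. No other PI3K inhibitor was used, and whether these rises follow from the inhibition of PI3K was not tested. In this comparison 6 of the 24 probe sets were higher than with DMSO and 0 were lower, at an adjusted p under 0.05 from limma. The adjustment was that of Benjamini-Hochberg over all 21765 probe sets tested. Over all probe sets tested, 4.45% were higher and 3.33% lower. The median log2 difference of the 24 probe sets was 0.22, beside -0.004 over all probe sets, and 18 of the 24 were positive. Represented by their brightest probe set, 4 of the 10 genes rose (Ulk1, Ulk2, Atg12 and Map1lc3a). Leaving out LY294002 replicate 2 left 3 of the 6 calls, where 481 of all probe sets were higher and 368 lower (969 and 724 as reported). Fitting the DMSO and LY294002 arrays alone left 2, those of Ulk1 and of a Map1lc3b probe set, where 283 were higher and 205 lower. With replicate number as a block in the fit the same 6 passed, where 1705 of all probe sets were higher and 1352 lower.

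**Figure D1:**
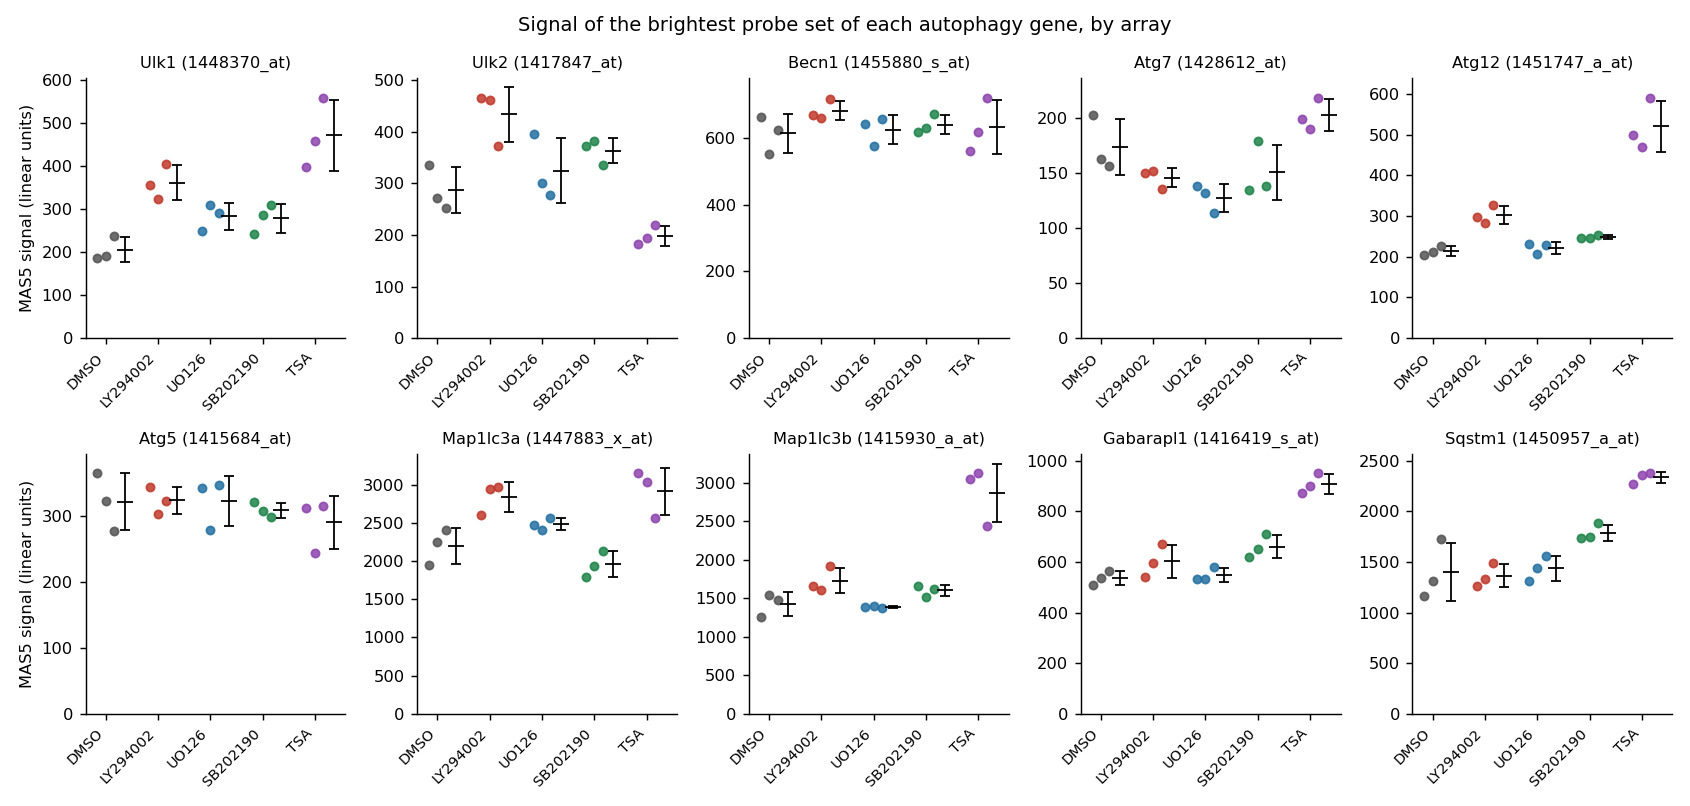
MAS5 signal (linear units, axis from 0) of the brightest probe set of each of the 10 genes. Each point is 1 array, and the black bar beside each group is the mean ± SD of 3 arrays. The TSA arrays lie above all DMSO arrays for Ulk1, Atg12, Map1lc3a, Map1lc3b, Gabarapl1 and Sqstm1 and below them for Ulk2, while every inhibitor group overlaps with DMSO for Becn1 and Atg5.

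Ulk1 encodes the kinase that receives the mTOR signal at the start of autophagy. Its brightest probe set (1448370_at) read 186, 192 and 239 with DMSO and 357, 323 and 405 with LY294002. The LY294002 arrays were all above the DMSO arrays, with a log2 difference of 0.82 ± 0.14 (SE; 1.76-fold; limma adjusted p = 0.00394), and the call held without any 1 array. The same probe set read 249, 310 and 292 with UO126, and 243, 286 and 309 with SB202190. Both groups lay above the DMSO arrays and below the LY294002 arrays, but neither passed the threshold against DMSO (0.47 ± 0.14 with UO126, limma adjusted p = 0.118; 0.44 ± 0.14 with SB202190, limma adjusted p = 0.123). With TSA it read 397, 458 and 560, a log2 difference from DMSO of 1.19 ± 0.14 (limma adjusted p = 4.56e-06). Arrays of the same number deviated together in UO126 and DMSO, and with replicate number as a block the UO126 difference passed (limma adjusted p = 0.0129). The second, dimmer probe set of Ulk1 (1416504_at) read 42.2 to 82.3 with DMSO and 73.2 to 84.4 with LY294002, so the groups overlapped (0.33 ± 0.24, limma adjusted p = 0.45). With TSA it read 87.8 to 143 and was higher than with DMSO (0.81 ± 0.24, limma adjusted p = 0.0109), a call lost without DMSO replicate 1 or TSA replicate 3 (up to 0.0629).

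Ulk2, the paralog that can stand in for Ulk1, moved in opposite directions with LY294002 and TSA. Its brightest probe set (1417847_at) read 337, 272 and 252 with DMSO, 466, 462 and 373 with LY294002 and 182, 194 and 219 with TSA. The 3 groups did not overlap: LY294002 was above DMSO by 0.60 ± 0.14 (limma adjusted p = 0.0197), TSA was below it by -0.53 ± 0.14 (limma adjusted p = 0.00542), and LY294002 exceeded TSA by 1.13 ± 0.14 (limma adjusted p = 7.89e-06). UO126 (278 to 396) and SB202190 (336 to 383) overlapped with DMSO. The rise with LY294002 lost its call without DMSO replicate 2 or 3 or LY294002 replicate 1 or 2 (up to 0.0822), while the fall with TSA kept its call without any 1 array. A second probe set (1417846_at) read 98.2, 89.6 and 75.9 with DMSO and 139, 143 and 125 with LY294002, a rise of 0.63 ± 0.15 (limma adjusted p = 0.0163) that was lost without DMSO replicate 3 or LY294002 replicate 1 or 2 (up to 0.0711). Its TSA arrays (91.2 to 107) overlapped with DMSO, at 0.20 ± 0.15 (limma adjusted p = 0.249). The third (1448858_at) differed by 0.23 ± 0.11 with LY294002 (limma adjusted p = 0.223) and was lower with TSA, at -0.38 ± 0.11 (limma adjusted p = 0.00883). Thus 2 of the 3 tested Ulk2 probe sets rose with LY294002, 2 fell with TSA, and only 1417847_at did both.

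Becn1, a subunit of the class III PI3K complex that makes the lipid of the growing membrane, passed the threshold in none of the 10 comparisons with any of its 5 tested probe sets. Its brightest probe set (1455880_s_at, whose suffix marks probes shared between transcripts) averaged 613 ± 57.3 (SD, n = 3) with DMSO, 682 ± 29.6 with LY294002, 640 ± 29.1 with SB202190, 625 ± 43.5 with UO126 and 632 ± 81.7 with TSA. Each inhibitor group overlapped with DMSO, and the 95% interval of the log2 difference from DMSO ran from -0.05 to 0.37 with LY294002 and from -0.17 to 0.25 with TSA.

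Among the conjugation genes Atg12 alone passed the threshold against DMSO. Atg12 encodes a small ubiquitin-like protein that is coupled to Atg5. Its brightest probe set (1451747_a_at) read 204, 211 and 228 with DMSO, 299, 283 and 328 with LY294002 and 501, 470 and 591 with TSA. The 3 groups were separate, with LY294002 above DMSO by 0.50 ± 0.099 (limma adjusted p = 0.00713), TSA above DMSO by 1.28 ± 0.099 (limma adjusted p = 4.11e-08), and LY294002 below TSA by -0.78 ± 0.099 (limma adjusted p = 8.23e-06). UO126 read 206 to 232 and SB202190 read 245 to 254, at differences of 0.05 ± 0.099 (limma adjusted p = 0.891) and 0.21 ± 0.099 (limma adjusted p = 0.302). The second Atg12 probe set (1451746_a_at) rose 3.13-fold with TSA, from 59.6 to 105 on the DMSO arrays to 232 to 304. With LY294002 it differed by 0.43 ± 0.18 (limma adjusted p = 0.162), a difference that passed without DMSO replicate 1.

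Atg7 is the activating enzyme shared by both conjugation reactions, and Atg5 is the partner of Atg12. Atg7 (1428612_at) averaged 174 ± 25.4 with DMSO, 146 ± 8.77 with LY294002, 150 ± 24.7 with SB202190, 128 ± 12.7 with UO126 and 202 ± 14.6 with TSA. None of these differed from DMSO past the threshold, but LY294002 and UO126 lay wholly below DMSO (-0.25 ± 0.14, limma adjusted p = 0.295, and -0.44 ± 0.14, limma adjusted p = 0.123). The other inhibitors were below TSA, by a log2 difference of -0.67 ± 0.14 for UO126 (limma adjusted p = 0.000708), -0.47 ± 0.14 for LY294002 (limma adjusted p = 0.00878) and -0.44 ± 0.14 for SB202190 (limma adjusted p = 0.0144). The last call was lost without SB202190 replicate 1 or 3 or TSA replicate 3 (up to 0.067). Atg5 (1415684_at) averaged 322 ± 43.5 with DMSO and between 291 and 324 in the other groups, all overlapping. Of its 3 tested probe sets, 1 (1418236_s_at) passed in 1 comparison, LY294002 below TSA (-0.35 ± 0.13, limma adjusted p = 0.035), and lost the call without LY294002 replicate 1 or 2 or TSA replicate 1 (up to 0.147).

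The Atg8 family encodes the small proteins that are fixed to the autophagosome membrane and bind cargo receptors. Map1lc3b, the source of the LC3-II band used to follow autophagy, was measured by 3 probe sets above the signal threshold. One of them (1415929_at) read 613, 708 and 758 with DMSO, 989, 941 and 1105 with LY294002, 891, 977 and 1051 with SB202190, 678, 780 and 785 with UO126, and 1955, 2039 and 1923 with TSA. LY294002, SB202190 and TSA lay wholly above DMSO, whereas UO126 overlapped with it. The log2 difference was 0.55 ± 0.097 with LY294002 (limma adjusted p = 0.0039), 0.49 ± 0.097 with SB202190 (limma adjusted p = 0.0139) and 1.51 ± 0.097 with TSA (limma adjusted p = 5.22e-09). The SB202190 call was lost without SB202190 replicate 2 or 3 (up to 0.0576), and those with LY294002 and TSA held without any 1 array.

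The other Map1lc3b probe sets gave smaller differences. The brightest (1415930_a_at) read 1252, 1543 and 1479 with DMSO, 1658, 1611 and 1919 with LY294002 and 3047, 3121 and 2431 with TSA. It lay above DMSO in both groups, but only TSA passed the threshold (1.01 ± 0.10, limma adjusted p = 9.66e-07). The LY294002 difference of 0.28 ± 0.10 (limma adjusted p = 0.112) passed with quantile normalization. The remaining one (1415928_a_at) differed by 0.26 ± 0.10 with LY294002 (limma adjusted p = 0.128) and by 0.89 ± 0.10 with TSA (limma adjusted p = 2.68e-06). All 3 therefore rose with TSA and 1 of 3 with LY294002. The signals of 1415929_at followed those of the other 2 over the 15 arrays with Pearson correlations of 0.96 and 0.92, a description in which the TSA arrays carry much of the range.

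**Figure D2:**
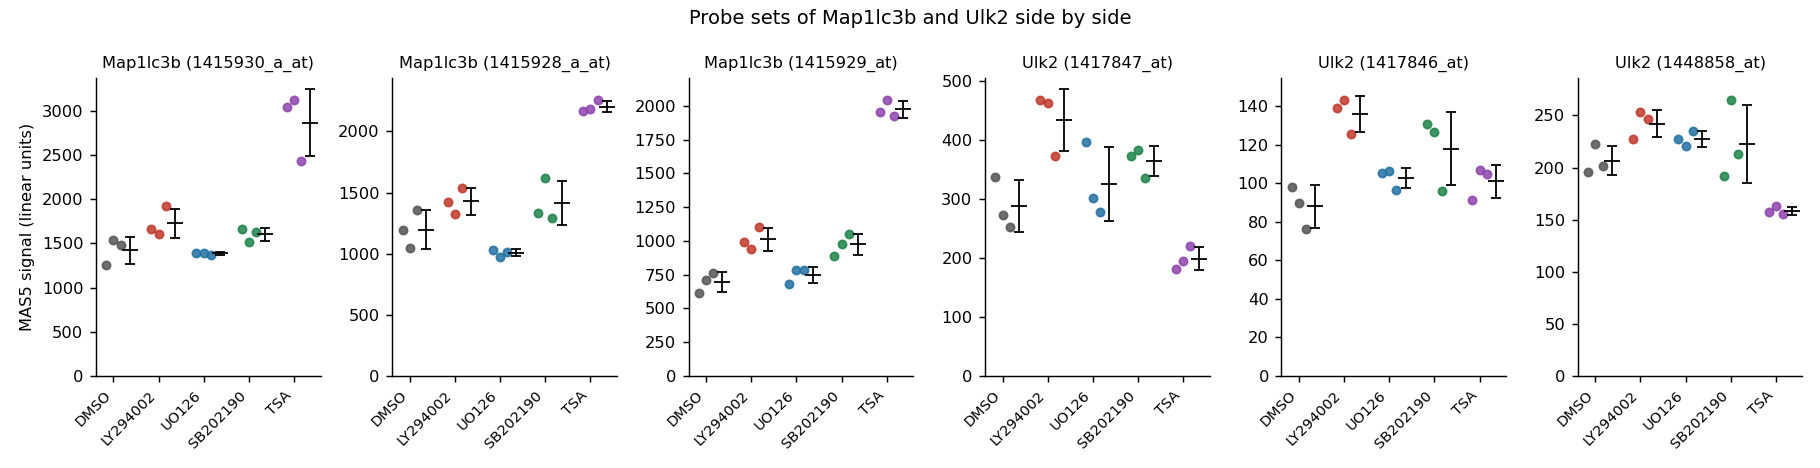
MAS5 signal (linear units, axis from 0) of the tested probe sets of Map1lc3b and Ulk2 by group, 1 point per array, with the mean ± SD of 3 arrays as the black bar. All 3 Map1lc3b probe sets are highest with TSA, while the TSA arrays of Ulk2 lie below DMSO for 1417847_at and 1448858_at and overlap with it for 1417846_at.

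Map1lc3a encodes a close relative of Map1lc3b. Its brightest probe set (1447883_x_at, whose suffix marks probes that may also bind other transcripts) read 1945, 2251 and 2399 with DMSO, 2604, 2937 and 2967 with LY294002 and 3147, 3028 and 2559 with TSA. Both inhibitors lay above DMSO, by 0.37 ± 0.10 with LY294002 (limma adjusted p = 0.0361) and 0.41 ± 0.10 with TSA (limma adjusted p = 0.00308). The LY294002 call was lost without DMSO replicate 1 or 2 or LY294002 replicate 2 or 3 (up to 0.107). The lowest Map1lc3a signals were those of SB202190, 1796, 1938 and 2136, which overlapped with DMSO (-0.17 ± 0.10, limma adjusted p = 0.458). The second probe set (1451290_at) ranged from 436 to 740 with DMSO, and its differences of 0.21 ± 0.20 with LY294002 (limma adjusted p = 0.554) and 0.28 ± 0.20 with TSA (limma adjusted p = 0.252) did not pass.

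Gabarapl1, an Atg8 family member of the GABARAP branch, was higher with SB202190 and TSA on 1 of its 2 probe sets and with TSA on the other. Its probe set 1416418_at read 219, 164 and 148 with DMSO, 238, 253 and 220 with LY294002, 322, 284 and 381 with SB202190, 186, 167 and 203 with UO126 and 403, 436 and 572 with TSA. SB202190 raised it by 0.90 ± 0.16 (1.87-fold; limma adjusted p = 0.00694) and TSA by 1.41 ± 0.16 (limma adjusted p = 2.17e-06), and both calls held without any 1 array. The SB202190 call was lost when all 5 arrays numbered 3 were left out (0.67, limma adjusted p = 0.0802). LY294002 lay just above DMSO without passing (0.44 ± 0.16, limma adjusted p = 0.103), and passed without DMSO replicate 1, the highest DMSO array. The brighter probe set (1416419_s_at, with probes shared between transcripts) rose with TSA by 0.76 ± 0.088 (limma adjusted p = 2.97e-06) and differed by 0.30 ± 0.088 with SB202190 (limma adjusted p = 0.0859) and 0.16 ± 0.088 with LY294002 (limma adjusted p = 0.273).

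Sqstm1 encodes p62, which binds ubiquitin on cargo and LC3 on the membrane and is itself degraded by autophagy. Its probe set (1450957_a_at) read 1169, 1309 and 1724 with DMSO, 1267, 1334 and 1489 with LY294002, 1733, 1742 and 1882 with SB202190, 1312, 1445 and 1558 with UO126 and 2271, 2359 and 2375 with TSA. LY294002 and UO126 fell within the DMSO range, SB202190 lay just above it and TSA far above it. The difference with LY294002 was -0.02 ± 0.12, with a 95% interval from -0.27 to 0.23 (limma adjusted p = 0.934). It was 0.76 ± 0.12 with TSA (limma adjusted p = 5.3e-05) and 0.37 ± 0.12 with SB202190 (limma adjusted p = 0.112). The SB202190 difference passed without DMSO replicate 3, the highest DMSO array (0.53, limma adjusted p = 0.013), and without the 5 arrays numbered 3 (0.49, limma adjusted p = 0.0441).

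Against DMSO, UO126 moved 0 of the 24 probe sets past the threshold in limma, where 1.36% of all probe sets were higher and 1.32% lower. SB202190 raised 2, the probe sets of Gabarapl1 and Map1lc3b above, and lowered 0, where 1.53% of all were higher and 1.31% lower. Without SB202190 replicate 2 or 3, 1 of the 2 calls was left. Without the 5 arrays numbered 3 both were lost, and Sqstm1 passed instead. The median log2 difference of the 24 probe sets was 0.04 with UO126 and 0.19 with SB202190.

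TSA raised 11 of the 24 probe sets and lowered 2, both of Ulk2. As TSA moved a large part of the transcriptome, with 28.1% of all probe sets higher and 26.6% lower, the 54.2% of autophagy probe sets that passed (45.8% higher and 8.33% lower) were close to the 54.7% over all. The median log2 difference was 0.25 beside -0.01 over all probe sets. By their brightest probe set, Ulk1, Atg12, Map1lc3a, Map1lc3b, Gabarapl1 and Sqstm1 rose and Ulk2 fell, and Becn1, Atg7 and Atg5 did not pass. Atg12 (1451746_a_at) had the highest difference, 1.65 ± 0.18, followed by 1.51 ± 0.097 for 1415929_at of Map1lc3b. Chondrocyte and muscle marker sums were lower with TSA, as given above, although Col2a1 stayed near its DMSO mean.

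**Figure D3:**
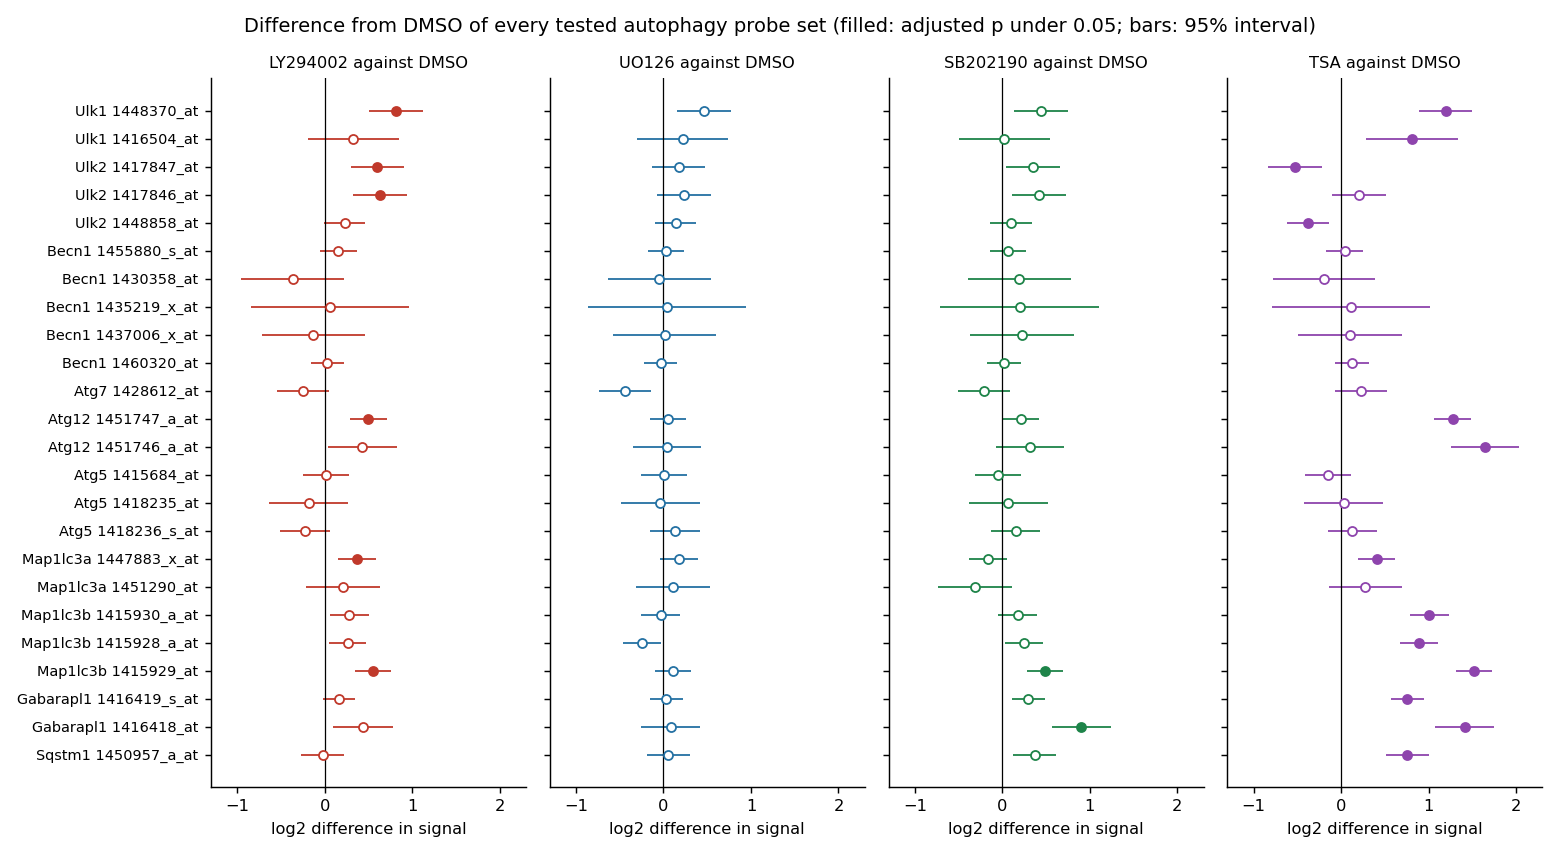
Log2 difference in MAS5 signal from DMSO for the 24 tested probe sets, 1 panel per inhibitor. Bars are 95% intervals of the limma fit with 3 arrays per group, and filled points passed an adjusted p of 0.05: 13 with TSA, 6 with LY294002, 2 with SB202190 and 0 with UO126.

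The inhibitors were then compared with each other, which tests whether their effects differed. Comparisons of each inhibitor with DMSO share the DMSO arrays, so only these direct contrasts are read. LY294002 exceeded UO126 for 3 of the 24 probe sets, where 6.61% of all probe sets differed: Atg12 (0.45 ± 0.099, limma adjusted p = 0.0141) and 2 of Map1lc3b (0.50 ± 0.10 for 1415928_a_at, limma adjusted p = 0.00857, and 0.44 ± 0.097 for 1415929_at, limma adjusted p = 0.0146). Arrays of these groups were paired by number, and with the block 5 passed, the same 3 with Ulk1 (0.35, limma adjusted p = 0.0331) and Ulk2 (0.43, limma adjusted p = 0.042). Of all probe sets 1347 were then higher and 1178 lower, against 781 and 658 as reported. Without LY294002 replicate 3 only 1 of the 3 was left, that of 1415928_a_at, and the other 2 were also lost without a UO126 array (replicate 2 for Atg12 and 1 for 1415929_at, up to 0.06).

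LY294002 and SB202190 differed in 1 probe set, where 6.09% of all differed. Map1lc3a was higher with LY294002 by 0.54 ± 0.10 (limma adjusted p = 0.00509), with all LY294002 arrays above all SB202190 arrays. For Ulk1 the difference was 0.37 ± 0.14 (95% interval 0.07 to 0.68, limma adjusted p = 0.158), so neither a difference nor its absence was shown. For Sqstm1 it was -0.39 ± 0.12 (95% interval -0.64 to -0.14, limma adjusted p = 0.0619), with all LY294002 arrays below all SB202190 arrays. The Sqstm1 difference passed with quantile normalization (limma adjusted p = 0.0307), with the filter on a mean of 100 (0.0494), with the 2 groups fitted alone (0.0307) and without the 5 arrays numbered 3 (0.0489), and not when each array was centred on its median (0.303).

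UO126 and SB202190, which the submitters name together, differed in 4 probe sets, where 8.19% of all differed. SB202190 was higher for Gabarapl1 (1416418_at, UO126 minus SB202190 -0.82 ± 0.16, limma adjusted p = 0.00409) and for 2 probe sets of Map1lc3b (-0.49 ± 0.10 for 1415928_a_at, limma adjusted p = 0.00724, and -0.38 ± 0.097 for 1415929_at, limma adjusted p = 0.0233). Map1lc3a was higher with UO126 (0.35 ± 0.10, limma adjusted p = 0.0467), a call lost without any of the UO126 arrays or SB202190 replicate 1 or 2 (up to 0.199). Without UO126 replicate 1 or SB202190 replicate 2, 2 of the 4 calls were left, and when each array was centred on its median only that of Gabarapl1 remained.

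TSA differed from LY294002 in 14 probe sets (3 higher with LY294002 and 11 lower), where 53.4% of all differed. It differed from UO126 in 12 (55.1% of all) and from SB202190 in 15 (52.5% of all). LY294002 was higher for all 3 Ulk2 probe sets, by 0.43 to 1.13, and TSA was higher for both probe sets of Atg12, all 3 of Map1lc3b and both of Gabarapl1 and for Sqstm1. Ulk1 overlapped between LY294002 and TSA on its brightest probe set (-0.38 ± 0.14, limma adjusted p = 0.0387) and lost its call without LY294002 replicate 1 or 2 or TSA replicate 2 or 3 (up to 0.188). Centring each array on its median ended 3 of the calls between LY294002 and TSA, those of Ulk1, Atg7 and 1418236_s_at of Atg5. The order of the groups thus differed between genes. For Atg12 it was TSA, LY294002, then SB202190, UO126 and DMSO, where LY294002 did not pass against SB202190 (0.29 ± 0.099, limma adjusted p = 0.108) and the last 3 did not differ past the threshold, whereas for Ulk2 TSA was lowest and LY294002 highest, and LY294002 did not pass against SB202190 or, without the block, against UO126.

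The remaining genes of the pathway were read from a list of 56. Of these, 54 had a probe set and all 54 were tested, each by its brightest probe set. The shares beside them, here and below, are over every tested probe set, dimmer ones of a gene included, and so not over a like set. With LY294002, 4 of the 54 rose (7.41%, beside 4.45% of all probe sets) and 0 fell (beside 3.33%), with a median log2 difference of 0.14 and 44 of 54 positive. With the replicate block 8 rose, with the LY294002 and DMSO arrays fitted alone 1, and without the 5 arrays numbered 3 the count was 0. Of all probe sets 1705, 283 and 205 were higher in these fits. The 4 of the reported fit included the autophagy receptor gene Calcoco1 (0.66 ± 0.14, limma adjusted p = 0.0122) and Wdr45, whose product binds phosphoinositides (0.53 ± 0.086, limma adjusted p = 0.00234). The others were the cargo receptor Nbr1 (0.41 ± 0.10, limma adjusted p = 0.0232) and Mtor, the kinase that restrains autophagy (0.41 ± 0.081, limma adjusted p = 0.00749). The call of Calcoco1 was lost without LY294002 replicate 2 (0.052) and that of Nbr1 without DMSO replicate 2 or 3 or LY294002 replicate 1 (up to 0.0942). Those of Wdr45 and Mtor held without any 1 array but not under every other alternative (up to 0.0511 and 0.082). The 3 partners of Ulk1 in the initiation complex, Rb1cc1, Atg13 and Atg101, differed by 0.36 to 0.48 and did not pass.

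UO126 raised 3 of the 54 and lowered 1 (7.41%, beside 2.68% of all probe sets). With each array centred on its median, with the UO126 and DMSO arrays fitted alone or without the 5 arrays numbered 3, the only call left was that of Trp53inp2, which passed under every alternative (up to 0.0468). Trp53inp2, which promotes autophagosome formation, rose by 0.54 ± 0.077 (limma adjusted p = 0.00103), and Deptor, an inhibitor of mTOR, by 0.47 ± 0.083 (limma adjusted p = 0.00556). The mitophagy receptor Bnip3 rose by 0.57 ± 0.13 (limma adjusted p = 0.0262; lost without any DMSO array or UO126 replicate 3, up to 0.0896), and Nfe2l2, the transcription factor Nrf2, fell by -0.46 ± 0.10 (limma adjusted p = 0.0238; lost without DMSO replicate 2 or 3 or UO126 replicate 2, up to 0.116). SB202190 raised 3 (5.56%, beside 1.53% of all probe sets higher and 1.31% lower): Bnip3 (0.57 ± 0.13, limma adjusted p = 0.026), Mtor (0.36 ± 0.081, limma adjusted p = 0.0261) and Keap1, the partner that holds Nrf2 (0.41 ± 0.11, limma adjusted p = 0.0491). Each of these 3 was lost without any of 5 arrays, among them DMSO replicates 1 and 2 and SB202190 replicates 1 and 2 (up to 0.137), and 0 of the 54 passed with each array centred on its median.

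With TSA 31 of the 54 rose (57.4%, beside 28.1% of all probe sets) and 5 fell (9.26%, beside 26.6%), with a median log2 difference of 0.47. The 54 are the brightest probe sets of named genes, which the probe sets behind the shares over all are not. The smallest p-values belonged to Calcoco1 (2.01 ± 0.14, limma adjusted p = 1.64e-08), the Atg8 family gene Gabarapl2 (1.26 ± 0.096, limma adjusted p = 3.33e-08), Wdr45 (1.12 ± 0.086, limma adjusted p = 3.95e-08) and Trp53inp1, a stress protein that binds LC3 (1.53 ± 0.12, limma adjusted p = 4.73e-08). By role, all 3 initiation partners rose, as did 5 of 7 genes of the lipid kinase complex, 4 of 7 of conjugation, 4 of 6 cargo receptors and 1 of 2 Atg8 family genes. Of the 6 fusion genes 3 rose and 1 fell, of the 8 genes of membrane supply and lipid binding 3 rose and 2 fell, and of the 15 regulators 8 rose and 2 fell. The 5 that fell, named after their values were seen, were the fusion SNARE gene Vamp8 (-1.02 ± 0.081), Keap1 (-0.74 ± 0.11), Wdr45b (-0.66 ± 0.13), the membrane protein gene Atg9a (-0.48 ± 0.089) and the mTOR partner Rptor (-0.31 ± 0.10).

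**Figure D4:**
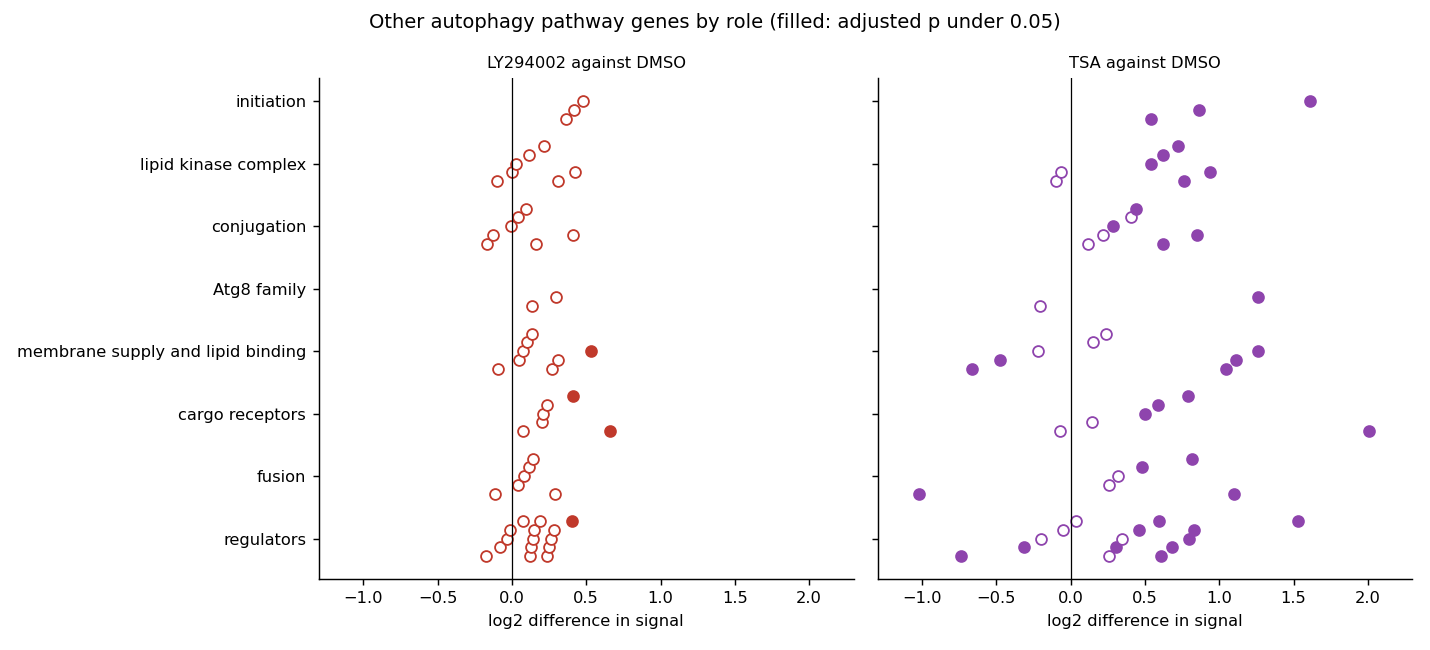
Log2 difference in MAS5 signal from DMSO for the 54 other autophagy genes, 1 point per gene, grouped by role, with LY294002 on the left and TSA on the right. Filled points passed an adjusted p of 0.05: 4 with LY294002, all higher, and 36 with TSA, of which 5 were lower.

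Genes whose signals ran most closely with a member over the 15 arrays were listed as a description; the arrays share their groups and controls, so no p is given. For Ulk1 these were Ift46 (Pearson r = 0.965), Grk5 (0.942) and Herpud2 (0.939). For Ulk2 (1417847_at) they were Lyrm2 (0.983), Zmynd11 (0.977) and Mzt1 (0.97), those of 1417846_at were Ascc1 (0.937), Smarce1 (0.913) and 4930402H24Rik (0.91), and those of Atg12 were Carhsp1 (0.979), Tjp1 (0.978) and Cox7a2l (0.976). For Map1lc3b (1415929_at) they were Ccndbp1 (0.988), Pld3 (0.986) and Grn (0.983), and for Map1lc3a Amotl2 (0.909), Ercc6l2 (0.879) and Sf3b5 (0.872). Over the 12 arrays without TSA the same correlations ranged from 0.859 to 0.976. Among the members, Ulk1 and Atg12 correlated at 0.876 over 15 arrays and 0.797 over 12, whereas Ulk2 and Atg12 correlated at -0.551 over 15 arrays and 0.666 over the 12 without TSA.

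The 7 probe sets under the signal threshold were 1439591_at of Ulk2, 1428611_at, 1428610_at and 1446633_at of Atg7, 1439457_x_at of Atg12, 1428024_at of Map1lc3b and 1444021_at of Sqstm1. None had an array above 44.3, the highest value being that of 1428611_at on a TSA array. The Map1lc3b probe set read 12.8 to 28.9 with TSA and 1.93 to 8.25 with DMSO, all below the signal filter, and was not tested in the reported fit. In the alternative with no filter on low signals, it and 1428611_at of Atg7 passed for TSA against DMSO. There 6472 of 45037 probe sets were higher and 5971 lower.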

How the data were processed

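Total RNA of 15 primary chondrocyte cultures was hybridized to Affymetrix mouse arrays, and the authors deposited 1 table of MAS5 signal intensity on a linear scale. MAS5 turns the probes of 1 probe set into 1 signal and brings arrays to a common scale: the mean signal, trimmed by 2% at each end, was 150 on all 15 arrays. Detection calls were not used, no genome build is named in the table, and precision is limited by the number of arrays. Groups were taken from the sample titles, and the submitters describe the 3 arrays of a group as biological replicates.

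Probe sets were named through the platform annotation (34945 with 1 symbol, 932 with several, 9224 with none listed; 99.4% of the first matched RefSeq by gene ID). The 64 control probe sets were left out. Tests were run on probe sets with a mean signal of 50 or more in 1 or more of the 5 groups. Signals, with a floor of 1, were put on the log2 scale. The 5 group means were estimated from all 15 arrays by limma 3.58.1 (R 4.3.3, empirical Bayes with variance trend), and two-sided p-values were adjusted by Benjamini-Hochberg over 21765 probe sets within each of 10 comparisons. Differences are on the log2 scale, first group minus second, and are given ± SE. Fold values are those differences put back on the linear scale, without sign. Group signals are given ± SD with n = 3. Calls used an adjusted p under 0.05. The fit was tested on simulated data with independent noise on each array, so pairing of arrays by number was not covered by it.

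The members and gene lists were chosen with earlier results of these data known. All probe sets of the 10 members were named, up to 4 other pathway genes per comparison with DMSO by smallest p past the threshold, and the 3 genes most correlated with each member that rose with LY294002. A gene was represented by its brightest probe set by mean log2 signal. For Optn and Bnip3l, also listed, no probe set was analysed here. Markers of 9 cell types were read. Arrays sharing a number counted as pairs if their deviations from the group means had r above 0.1 for all 3 numbers. This was so for LY294002 with DMSO (lowest r = 0.161), UO126 with DMSO (0.223), LY294002 with UO126 (0.175) and SB202190 with TSA (0.138); the labels do not say that a number marks a shared experiment. Alternatives were quantile normalization, centring, filters, an offset of 16, a floor of 50, no variance trend, a fit of 2 groups, the replicate block and leaving out arrays.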

Additional observations from a re-analysis of the deposited data

How the results depend on the processing

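In the comparisons with TSA the counts stayed within 1.5 times of those reported: over all alternatives 12 to 15 probe sets passed for TSA against DMSO (13 as reported), 11 to 15 for LY294002 against TSA (14), 12 to 14 for UO126 against TSA (12) and 12 to 16 for SB202190 against TSA (15). The smaller counts moved more. With the 2 groups compared alone, LY294002 against DMSO gave 2 (6 as reported), SB202190 against DMSO 1 (2) and LY294002 against SB202190 3 (1). Over all probe sets that fit gave 283 higher and 205 lower for LY294002 against DMSO (969 and 724 as reported). It gave 81 and 100 for SB202190 against DMSO (334 and 285) and 588 and 488 for LY294002 against SB202190 (669 and 657). With replicate number as a block the counts of autophagy probe sets were 1 for UO126 against DMSO (0) and 5 for LY294002 against UO126 (3). They were 5 for SB202190 against DMSO (gaining Ulk1, Sqstm1 and 1416419_s_at of Gabarapl1) and 4 for LY294002 against SB202190 (gaining Ulk1, Atg12 and Sqstm1). The block moved no other count of autophagy probe sets by over 1.5 times. Calls over all probe sets also rose with the block. They became 677 higher and 547 lower for SB202190 against DMSO, and 1054 and 1038 for LY294002 against SB202190. For UO126 against DMSO they went from 297 and 287 to 538 and 494, and for LY294002 against UO126 from 781 and 658 to 1347 and 1178. Over the other groups taken as a whole, all 15 arrays matched their own number best, but this did not hold within each single group. TSA replicate 2, for instance, correlated at 0.8458 with DMSO replicate 2 and 0.8485 with DMSO replicate 3. The pairs with SB202190 failed the check of pairing against DMSO and LY294002. LY294002 against SB202190 gave 2 with quantile normalization and 2 with a mean of at least 100, the gained call in both being Sqstm1. Without the 5 arrays numbered 3, a choice made after seeing the data, the counts were 2 for LY294002 against DMSO and 0 for LY294002 against UO126. They were 1 for SB202190 against DMSO (Sqstm1, with both reported calls lost), 2 for LY294002 against SB202190 and 2 for UO126 against SB202190 (4). Calls over all probe sets fell in each of these comparisons. They became 205 higher and 153 lower for LY294002 against DMSO, 85 and 108 for SB202190 against DMSO and 248 and 162 for LY294002 against UO126. For LY294002 against SB202190 they became 276 and 214, and for UO126 against SB202190 453 and 325. With 1 array left out the counts of autophagy probe sets were 3 to 7 for LY294002 against DMSO and 1 to 3 for SB202190 against DMSO. They were 1 to 3 for LY294002 against UO126 and 2 to 3 for UO126 against SB202190. Centring each array on its median moved the median of all probe sets for LY294002 against DMSO from -0.004 to 0.12 and their split from 969 higher and 724 lower to 1021 and 170, with the same 6 members passing; UO126 against SB202190 fell to 1. None of the called differences changed sign. Of the single values recomputed, 3652 kept their direction and their side of the threshold, 84 lost a call, 34 gained one and 174 changed sign without passing in either fit. Fits without arrays have fewer samples; the cause of the other changes was not tested.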
